A study of Homo sapiens with 6 samples.

Results

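Kinesins are motor proteins that use ATP to move along microtubules, or to take them apart from their ends. One set of them builds the mitotic spindle, moves chromosomes and cuts the dividing cell apart, and in cycling cells these genes are read mostly late in the cycle, before and during division. Another set carries vesicles, organelles and signalling complexes, and works in resting and dividing cells alike. All probes whose annotated symbol was KIF or KIFC followed by a digit were taken, which gave 57 probes of 41 genes, out of 47319 probes and 20046 named genes on the array. They were divided into the mitotic kinesins (KIF2C, KIF4A, KIF11, KIF14, KIF15, KIF18A, KIF18B, KIF20A, KIF20B, KIF22, KIF23 and KIFC1) and all others. KIF18B had no named probe, so it entered only the promoter search below. On the array the mitotic set had 11 of its 12 genes (14 probes) and the other set 30 genes (43 probes).

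The cells were of the line HCT116, which comes from a human colorectal carcinoma. All 6 samples were of its p53-null form, and whether that is 1 clone is not stated. The TIC10 group received TIC10 (ONC201), a small molecule, at 10 µM. The DMSO group received 0.05% DMSO, the solvent. RNA was taken 48 h after treatment and measured on Illumina bead arrays, 3 per group. The labels do not say whether the replicates came from separate cultures, so each p-value below reflects array-to-array spread only, and that spread may be technical. A bulk sample gives RNA per sample: fewer cells of a kind (such as cells about to divide) and less of a transcript in each cell cannot be told apart.

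Summed intensity ran from 1.16e+07 to 1.91e+07 per array, and the number of arrays limits the precision. DMSO 3 was the brightest array, its mean probe reading 404, where DMSO 1 read 297 and DMSO 2 read 270.0, and the median over all genes of the ratio of raw intensities, DMSO over TIC10, was 1.25. Normalization takes such a general difference out, and its cause was not tested. Of 8 epithelial marker genes, all 8 passed the filter on dim probes, and 7 lay above percentile 60 of every array, the exception being KRT18 on DMSO 3. Their summed raw intensity was 14968 to 22557 on DMSO arrays and 13537 to 16959 on TIC10 arrays. Of 15 marker genes of fibroblasts, leukocytes and endothelium, 8 passed and COL1A1 and CD68 lay above percentile 60 on every array. Their summed intensity was 946 to 972 on DMSO arrays and 1306 to 1464 on TIC10 arrays, and CD68, which encodes a lysosomal glycoprotein, rose by 1.80 ± 0.26 on the log2 scale (limma adjusted p = 0.00373). Further CD68 probes read 146 to 216 and 48.7 to 69.9 on DMSO arrays and 179.6 to 210.2 and 77.8 to 97.8 on TIC10 arrays, so that the groups overlapped in the first. The other 7 tested markers of these cells were not called, and the median of the 8 was -0.03. Of the epithelial markers ESRP1 rose by 1.08, KRT19 rose by 0.39 and ELF3 fell by 0.76. The part of this in the kinesin results was not tested.

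TIC10-treated cells had less mRNA of every mitotic kinesin that was measured. All 11 fell, 10 of them at least 2-fold, from KIF20A (6.05-fold) to KIF15 (1.68-fold), and the median log2 change was -1.68. Their adjusted p ran from 9.76e-05 to 0.00356 (limma, two-sided, Benjamini-Hochberg adjusted over 14534 genes, with a call at an adjusted p under 0.05). Over all genes tested, 13.4% were called lower, 2.8% lower by at least 2-fold, and the median change was -0.01. In all 11 the 3 TIC10 arrays lay below the 3 DMSO arrays on the normalized scale, which was so for 23.1% of genes. Of the other kinesins, 21 passed the filter. In these 4 fell (19%, against 13.4% of all genes; KIF3C among them passed the filter only through the DMSO arrays) and 1 rose (4.76%, against 10.4%), and the median change was 0.04. At an unadjusted p under 0.05 the other kinesins had 4 lower and 3 higher members of 21, beside 19.9% and 16.1% of all genes. In 4 of the 21 all TIC10 values lay below the DMSO values, and in 3 (KIF16B, KIF21B and KIF27) above them, as in 18.5% of all genes. All 11 mitotic kinesins were also called lower when any one array was left out. Fold changes are on the scale of normalized log2 intensity after an offset of 50 was added, which makes the change of dim probes smaller than the ratio of their raw intensities.

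**Figure D1:**
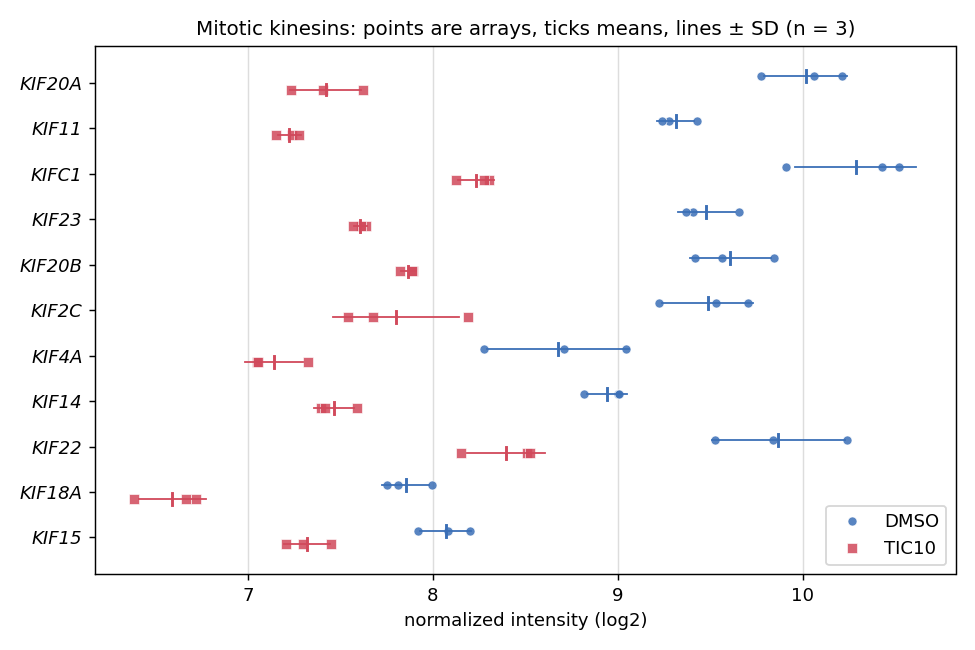
Normalized log2 intensity of the 11 mitotic kinesins on each array (points, 3 DMSO and 3 TIC10), with group means as ticks and the SD (n = 3) as lines. In each gene the TIC10 points lie below the DMSO points, and the change is largest in KIF20A (-2.60) and smallest in KIF15 (-0.75).

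Among the motors that set up the spindle, KIF11, the kinesin-5 that slides antiparallel microtubules apart and keeps the spindle bipolar, read 709, 549 and 931 on DMSO 1 to 3 and 99.0, 105 and 121 on TIC10 1 to 3 in raw intensity. The dimmest DMSO array was several times brighter than the brightest TIC10 array, and the gene fell by 2.09 ± 0.08 on the log2 scale (SE of the limma fit; 4.26-fold, adjusted p = 9.76e-05). A further probe of KIF11 read 441, 436 and 726 on DMSO arrays and 103, 84.9 and 89.1 on TIC10 arrays, with a log2 change of -1.87. KIF15, a kinesin-12 that can keep the spindle bipolar when KIF11 is inhibited, gave 285, 232 and 335 in DMSO against 109.5, 102 and 139 in TIC10. It had the smallest change of the set and fell by 0.75 ± 0.11 (adjusted p = 0.00356). KIFC1, a minus-end directed kinesin-14 that focuses spindle poles and clusters extra centrosomes, gave 1439, 1335 and 1521 against 230.0, 223 and 235. The arrays within each group were close to each other, and KIFC1 fell by 2.05 ± 0.17 (adjusted p = 0.000550).

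The motors that act on chromosomes and on microtubule ends fell as well. KIF2C (MCAK), a kinesin-13 that takes microtubules apart at kinetochores and so corrects faulty attachments, gave 762, 749 and 919 in DMSO against 146, 207 and 149 in TIC10. It fell by 1.68 ± 0.20 (adjusted p = 0.00187), with TIC10 2 above the other TIC10 arrays. KIF18A, the kinesin-8 that damps chromosome movement so that chromosomes line up, gave 243, 182 and 306 against 68.8, 55.6 and 76.7 and fell by 1.26 ± 0.12 (adjusted p = 0.000812). Its other probe was too dim to pass the filter (30.5 to 47.9 over the 6 arrays) and differed by -0.17. The chromokinesin KIF22, which binds chromosome arms and pushes them outward, gave 759, 822 and 1909 in DMSO against 267, 267 and 240.0 in TIC10. DMSO 3 was far above the other DMSO arrays here, and KIF22 fell by 1.47 ± 0.20 (adjusted p = 0.00291), with a change of -1.26 without that array. KIF4A, a chromokinesin that also sets the length of midzone microtubules together with PRC1, showed the same excess on DMSO 3, with 302, 364 and 811 against 112, 91.4 and 101. It fell by 1.53 ± 0.20 (adjusted p = 0.00245), with a change of -1.29 without DMSO 3. KIF4B, a close copy of KIF4A, read 35.9 to 46 on all arrays and did not pass the filter. Without a filter it differed by -0.07 (adjusted p = 0.633), and probes of such near copies may share signal.

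The motors of cytokinesis held the largest change. KIF20A (MKLP2), the kinesin-6 that brings the chromosomal passenger complex to the spindle midzone, gave 1102, 1058 and 1377 in DMSO against 119, 138 and 118 in TIC10. It fell by 2.60 ± 0.15 (adjusted p = 0.000190), and counted from the most negative change it was number 6 of the 14534 genes. KIF23 (MKLP1), which with RACGAP1 forms centralspindlin, the complex that bundles midzone microtubules and places the cleavage furrow, gave 697, 592 and 1259 against 142, 137 and 153 and fell by 1.87 ± 0.10 (adjusted p = 0.000178). A dimmer probe of KIF23, with 102, 92.6 and 178 in DMSO and 60.7, 52.1 and 63.1 in TIC10, gave a change of -0.56. The direction was the same in both probes and the size was not. KIF20B (MPP1), a kinesin-6 needed to complete cytokinesis, gave 780.1, 824 and 1057 in DMSO against 171, 169 and 187 in TIC10 and fell by 1.74 ± 0.12 (adjusted p = 0.000310). KIF14, a kinesin-3 that works with citron kinase at the midbody, gave 520.4, 394 and 789 in DMSO against 118, 119 and 156 in TIC10 and fell by 1.47 ± 0.09 (adjusted p = 0.000271). In raw intensity the ratio of the group means, DMSO over TIC10, ran from 2.43 for KIF15 to 9.43 for KIF20A over the 11 genes, beside the median of 1.25 over all genes.

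Most of the other kinesins did not pass the test, and 5 were called. KIF5C, a kinesin-1 heavy chain best known from neurons, had the largest change of them, with 179, 148 and 266 in DMSO against 76.1, 71.4 and 70.1 in TIC10. It fell by 0.86 ± 0.09 (adjusted p = 0.00110). The other 3 that fell had low raw intensities. KIF24, a centriolar kinesin-13 that restrains cilium formation, gave 82.7, 70.1 and 159 in DMSO against 42.9, 46.4 and 42.8 in TIC10. DMSO 3 was far above the other DMSO arrays. KIF24 fell by 0.65 ± 0.14 (adjusted p = 0.0193). The call was lost without any one TIC10 array (adjusted p up to 0.0742). The TIC10 readings of KIF24 lie in the range of the probes that the filter left out. KIF3C, a kinesin-2 subunit, gave 57.2, 50.7 and 85.2 in DMSO against 34.4, 36.9 and 35.8 in TIC10 and fell by 0.42 ± 0.10 (adjusted p = 0.0253, up to 0.0953 without DMSO 1 or any one TIC10 array). KIF3C passed the filter on its 3 DMSO arrays alone, and lay at percentile 11.4 to 20.9 of the TIC10 arrays. A probe that passes only through its brighter group had to differ, so this call adds no support. KIF26A, an atypical kinesin-11, gave 65.1, 60 and 79.9 in DMSO against 40.9, 47.7 and 45.2 in TIC10 and fell by 0.29 ± 0.08 (adjusted p = 0.0403). Leaving out any one array ended that call (adjusted p up to 0.137), and its TIC10 readings lie in the range of the probes that the filter left out. The TIC10 values of these 4 genes all lay below the DMSO values.

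KIF21B, a kinesin-4 that limits microtubule growth and carries receptors in neurons, was the member that rose. Its raw intensities, 65.5, 57.3 and 90.2 in DMSO against 80.1, 81.1 and 88.1 in TIC10, overlapped, while the normalized values did not, and it rose by 0.46 ± 0.09 (adjusted p = 0.0105). One-median scaling in place of quantile normalization ended the call (adjusted p = 0.219). Of its other probes, 2 were too dim to pass the filter.

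**Figure D2:**
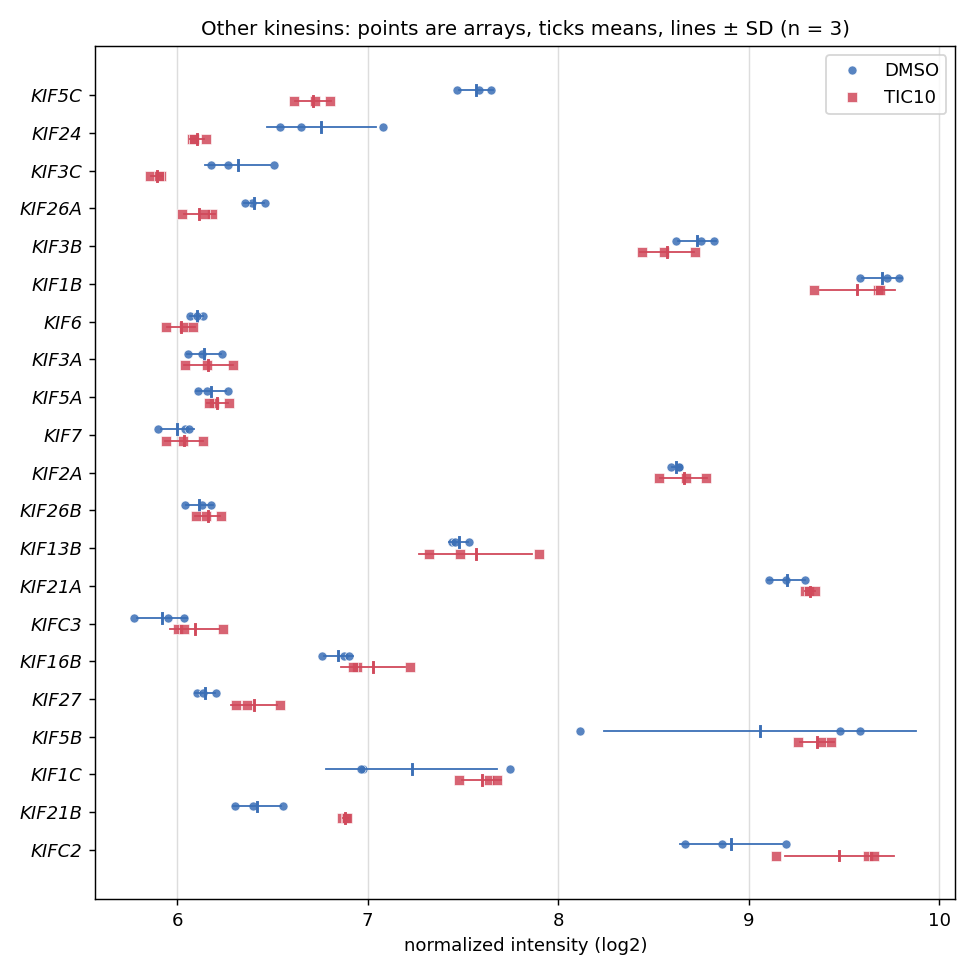
Normalized log2 intensity of the 21 other kinesins tested on each array (points, 3 DMSO and 3 TIC10), with group means as ticks and the SD (n = 3) as lines. The groups are apart in KIF5C (-0.86), KIF24 (-0.65), KIF3C (-0.42), KIF26A (-0.29) and KIF21B (0.46), which were called, and in KIF16B and KIF27, which were not.

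The general transport motors did not pass the test, with small differences in most. KIF5B, the ubiquitous kinesin-1 heavy chain, gave 793, 644 and 394 in DMSO against 486, 447 and 598 in TIC10. Here DMSO 3, the brightest array over all probes, was the dimmest. The change was 0.30 ± 0.37 (adjusted p = 0.640) with that array and -0.18 without it (adjusted p = 0.168). KIF3A and KIF3B form the kinesin-2 that drives outward transport in cilia. KIF3A was dim and differed by 0.02 ± 0.10 (adjusted p = 0.899). KIF3B, with 427, 394 and 582 in DMSO against 309, 272 and 297 in TIC10, differed by -0.16 ± 0.10 (adjusted p = 0.333), and its further probe by -0.20. Raw KIF3B values were lower on every TIC10 array, with a ratio of group means of 1.6 beside 1.25 over all genes, and the normalized values overlapped. KIF1B, a kinesin-3 that carries mitochondria and vesicles, differed by -0.13 ± 0.12 (adjusted p = 0.508), and its other kept probes by 0.09 and -0.16.

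KIF2A, a kinesin-13 of spindle poles and of neurons, is closely related to KIF2C but was outside the mitotic set. It gave 393, 344 and 572 in DMSO against 319, 267 and 352 in TIC10 and differed by 0.04 ± 0.09 (adjusted p = 0.805), where KIF2C fell by 1.68. The test of the difference between these 2 genes was not made, since they are read by different probes. KIF21A, a kinesin-4 that curbs microtubule growth at the cell cortex, differed by 0.12 ± 0.08 (adjusted p = 0.336). KIFC2, a kinesin-14 described mostly in neurons, gave 401, 518 and 703 in DMSO against 576, 414 and 705 in TIC10 and differed by 0.57 ± 0.19 (adjusted p = 0.0715), and passed the test without TIC10 2 (0.74, adjusted p = 0.0394). The remaining tested kinesins had changes between -0.08 (KIF6) and 0.37 (KIF1C). Without DMSO 3, KIF1C passed the test with 0.58 (adjusted p = 0.00125), and the calls among the other kinesins were then 3 lower (KIF24, KIF3C and KIF5C) and 2 higher (KIF1C and KIF21B), beside 19.1% and 16.2% of all genes. KIF1C, KIF6, KIF16B and KIF27 were picked for naming after their values were seen.

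**Figure D3:**
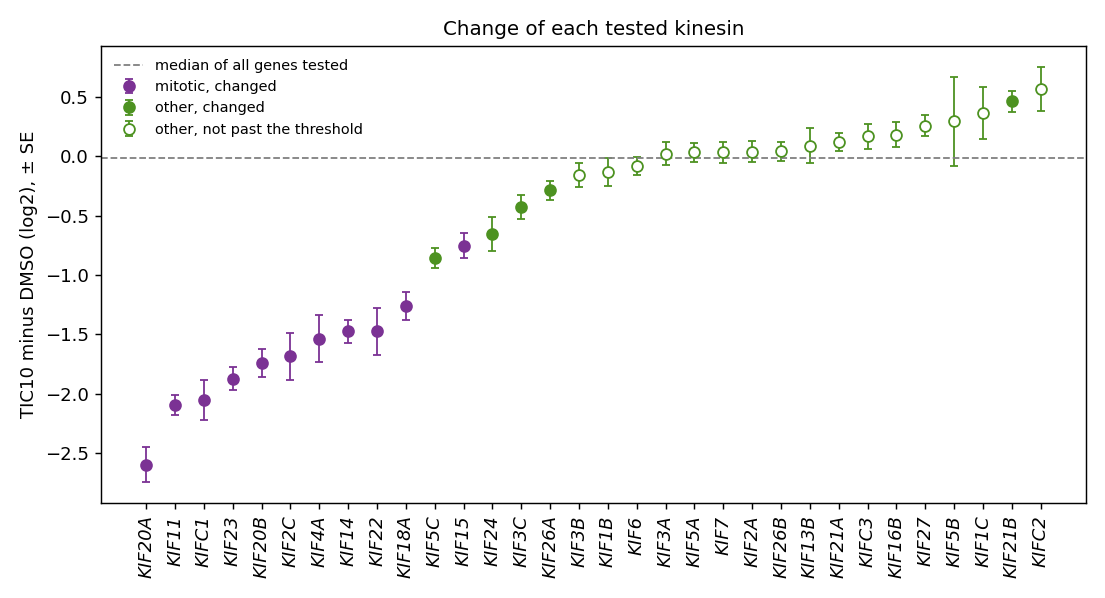
Log2 change (TIC10 minus DMSO) of each tested kinesin, with the SE of the limma fit as error bars, in separate colours for mitotic and other kinesins and with open points for genes past no threshold. The dashed line is the median of all genes (-0.01). The mitotic kinesins lie between -2.60 and -0.75 and the others between -0.86 and 0.57.

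The filter left out 9 kinesins, all from the other set: KIF1A, KIF2B, KIF4B, KIF9, KIF12, KIF13A, KIF17, KIF19 and KIF25. Their 12 probes read between 30.8 and 55.4 on every array, and none was above percentile 58.2 of an array. Several of these genes are known from neurons, cilia or testis (KIF1A and KIF17 in neurons, KIF9 and KIF19 in motile cilia). With no filter, their changes lay between -0.12 and 0.05 and the smallest adjusted p was 0.24. The tables used here hold no detection p-values, so whether these probes read above background was not tested. Counted by probe, 38 of the 57 kinesin probes were kept, and in 5 genes more than 1 probe was kept. Of the 13 kept probes of mitotic kinesins 13 were lower, and of the 25 kept probes of other kinesins 4 were lower and 1 higher, where 9.31% of all kept probes were lower and 8.66% higher (limma, adjusted over probes).

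The start regions of the genes were read next. The letters of a promoter were not used in choosing the members, but the mitotic set was chosen by its role in division. Many genes read late in the cell cycle carry a cell cycle genes homology region (CHR), which MuvB complexes such as DREAM bind, and a CCAAT box, which NF-Y binds. The windows came from RefSeq (GRCh38.p14), 250 bases before to 50 bases after each annotated start. The search covered 12 mitotic kinesins and 22 of the 30 other kinesins. It left out KIF5A, KIF13B, KIF19, KIF21B, KIF26B, KIF27, KIFC2 and KIFC3. The counts for the other kinesins thus do not include KIF21B, the one that was called higher. CHR was searched as TTTGAA or TTCGAA and the CCAAT box as CCAAT, each on both strands. TTCGAA reads the same on both strands, and no matches overlapped among the members. Of the mitotic kinesins 10 of 12 (83.3%) held a CHR spelling, against 3 of 22 others (13.6%) and 19.5% of 27305 genes. A CCAAT box was in 10 of 12 mitotic kinesins (83.3%), 8 of 22 others (36.4%) and 39.7% of genes. Both motifs were in 9 of 12 (75%), in 3 of 22 (13.6%) and in 7.85% of genes. The 12 include KIF18B, which has no expression value here. Of the 11 mitotic kinesins tested, 9 held a CHR spelling, 9 a CCAAT box and 8 both. By single window, the shares over 35116 windows were 16.4% for CHR, 34.6% for CCAAT and 6.38% for both. These are matches of letters, counted as a description: they do not show that a factor binds there. The contrast between sets chosen by role in division does not bear on the response to TIC10.

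The promoters below are shown from 100 bases before the start to 30 after it, 5′ to 3′ on the gene's strand, with both motifs in capitals on whichever strand they lie (TTCAAA and ATTGG are the reverse strand forms). The first 5 mitotic kinesins hold both motifs close to the start. KIF20A, the member that fell most, has CCAAT boxes but neither of the CHR spellings searched, and KIF2C has no match to either motif. KIF24 is the one other kinesin called lower with both motifs, and KIF3B, which was not called, has a CCAAT box only.
KIF11, chr10:92593030-92593159, plus strand: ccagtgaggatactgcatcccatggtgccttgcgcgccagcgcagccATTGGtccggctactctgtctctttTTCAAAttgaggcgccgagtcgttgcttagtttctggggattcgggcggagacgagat
KIF4A, chrX:70290004-70290133, plus strand: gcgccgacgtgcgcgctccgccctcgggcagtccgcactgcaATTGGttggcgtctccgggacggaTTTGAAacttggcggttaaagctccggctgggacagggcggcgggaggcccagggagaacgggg
KIF23, chr15:69414249-69414378, plus strand: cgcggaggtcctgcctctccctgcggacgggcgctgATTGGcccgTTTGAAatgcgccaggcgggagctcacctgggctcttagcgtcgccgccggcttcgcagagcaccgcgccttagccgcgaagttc
KIF22, chr16:29790651-29790780, plus strand: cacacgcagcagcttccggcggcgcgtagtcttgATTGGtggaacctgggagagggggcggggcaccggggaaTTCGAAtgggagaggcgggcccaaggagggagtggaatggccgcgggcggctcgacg
KIF18A, chr11:28108127-28108256, minus strand: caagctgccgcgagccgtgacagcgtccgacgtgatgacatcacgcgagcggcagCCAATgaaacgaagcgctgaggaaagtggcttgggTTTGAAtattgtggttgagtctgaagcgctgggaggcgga
KIF20A, chr5:138179012-138179141, plus strand: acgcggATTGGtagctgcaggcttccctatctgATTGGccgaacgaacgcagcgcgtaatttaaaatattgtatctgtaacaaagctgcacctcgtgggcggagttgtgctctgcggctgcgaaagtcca
KIF2C, chr1:44739737-44739866, plus strand: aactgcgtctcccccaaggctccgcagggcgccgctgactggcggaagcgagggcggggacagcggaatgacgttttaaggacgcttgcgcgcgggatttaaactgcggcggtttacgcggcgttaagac
KIF24, chr9:34329239-34329368, minus strand: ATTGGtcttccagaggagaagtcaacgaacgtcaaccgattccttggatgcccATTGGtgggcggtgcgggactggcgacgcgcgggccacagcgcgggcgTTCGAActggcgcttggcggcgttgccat
KIF3B, chr20:32277551-32277680, plus strand: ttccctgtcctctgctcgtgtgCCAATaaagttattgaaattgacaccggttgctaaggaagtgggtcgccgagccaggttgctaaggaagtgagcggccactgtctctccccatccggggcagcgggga

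With the start base counted as 1 and the base before it as -1, the CHR spelling began at -28 in KIF11, -34 in KIF4A, -55 in KIF23, -27 in KIF22 and -10 in KIF18A, and the CCAAT box at -53, -58, -64, -66 and -45. In each of these 5 the CCAAT box lay on the upstream side of the CHR. In KIF24 the CHR began at 2, with CCAAT boxes at -47, -100 and -154, of which the last lies outside the printed stretch. KIF15 held a CHR (at -35) and no CCAAT box in its window. KIF4B and KIF5B also held both motifs, and neither was called (KIF4B was too dim to test). KIF20A, with no match to the CHR spellings searched, fell by 2.60, and KIF11 with both motifs fell by 2.09. Whether a match goes with the size of the change was not tested.

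**Figure D4:**
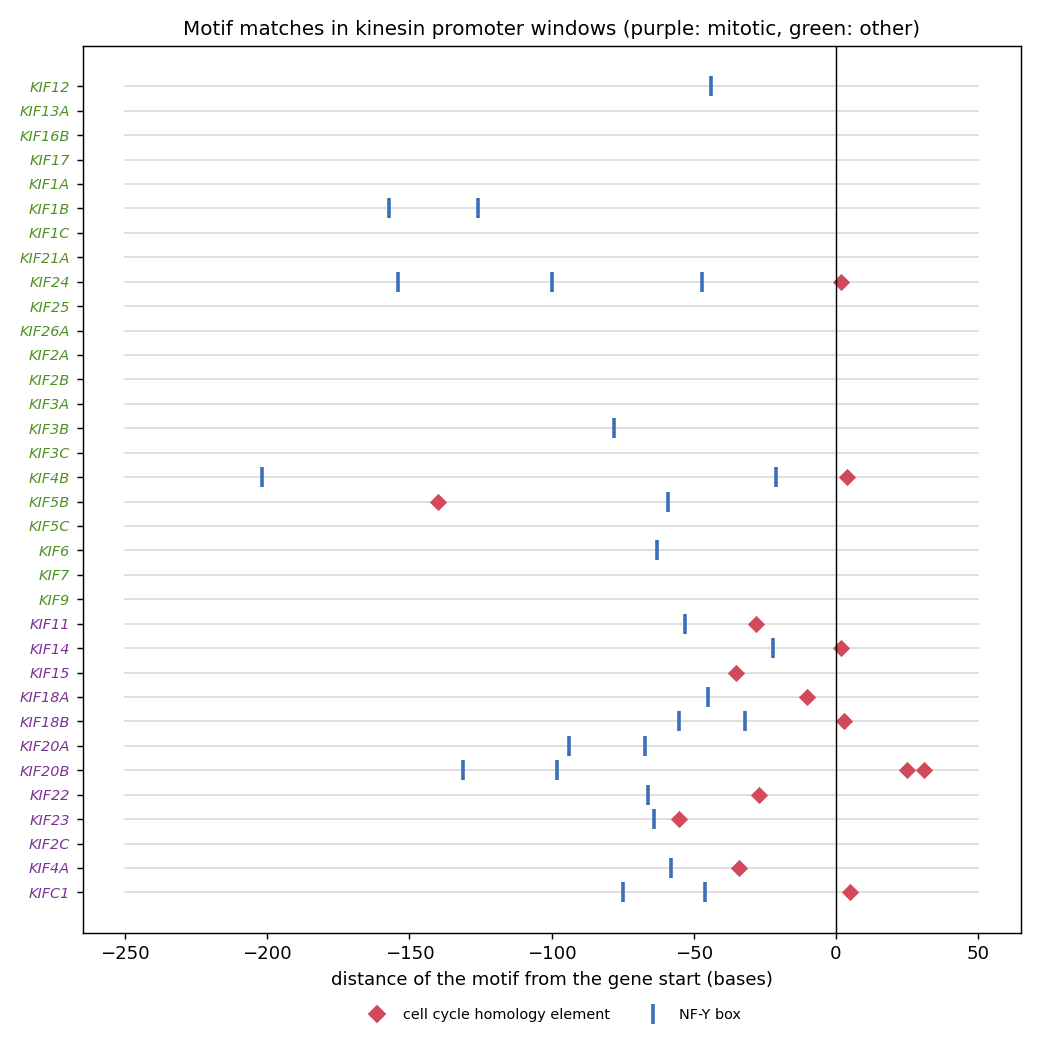
Position of CHR and CCAAT matches (the latter labelled as the NF-Y box) in the first listed promoter window of each kinesin searched, in bases from the annotated start, mitotic and other kinesins grouped. In the mitotic kinesins the marks lie within the last 100 bases before the start or after it, except a CCAAT box of KIF20B at -131.

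Transcripts of proteins that work with the mitotic kinesins moved in the same direction. Of 20 listed partners and regulators, 16 fell (80%, against 13.4% of all genes) and 0 rose (limma; 0 also at an unadjusted p under 0.05, with one-median scaling and with cyclic loess), with 14 lower by at least 2-fold and a median change of -1.39. In the authors' series matrix 3 of the 20 were lower and 0 higher (0 at an unadjusted p under 0.05), with a median of -0.24. Many of these genes are cell cycle genes that earlier results of these data already showed to be lower, so the count is not independent of those. BIRC5 (survivin) fell by 2.29 ± 0.21 (adjusted p = 0.000812), AURKB, the kinase of the chromosomal passenger complex, fell by 2.04 ± 0.18 (adjusted p = 0.000709), and CDCA8 (borealin) fell by 1.86 ± 0.12 (adjusted p = 0.000292). All 3 belong to the complex that KIF20A relocates. AURKA, the kinase of spindle poles, fell by 2.27 ± 0.11 (adjusted p = 0.000167). RACGAP1, the partner of KIF23, gave 1077, 918 and 1682 in DMSO against 221, 223 and 262 in TIC10 and fell by 1.76 ± 0.07. PRC1, the partner of KIF4A, fell by 1.70 ± 0.09, and CENPE, a kinetochore kinesin whose symbol lies outside the KIF names, fell by 1.36 ± 0.10. Citron kinase (CIT), the partner of KIF14, was dim and differed by -0.29 ± 0.10 (adjusted p = 0.0916). RACGAP1, PRC1, CENPE and CIT were picked for naming after their values were seen.

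Among light chains, adaptors and cargo regulators of the transport kinesins, 20 of 26 were tested, and 8 rose (40%, against 10.4% of all genes) and 2 fell (10%, against 13.4%), with a median of 0.45. This depended on the scaling: with one-median scaling 0 rose and 2 fell (1 higher at an unadjusted p under 0.05), and the median was 0.04, where that of all genes was -0.15. Leaving out 1 array gave between 2 higher members (without TIC10 1 or TIC10 3) and 9 (without DMSO 3), and between 0 and 2 lower ones. MAPK8IP3 (JIP3), which links kinesin-1 to signalling and lysosomal cargo, rose by 0.80 ± 0.16 (adjusted p = 0.0132, up to 0.0603 with 1 array left out). RAB3GAP1, part of the RAB18 exchange factor, rose by 0.73 ± 0.11 (adjusted p = 0.00437). KXD1, a subunit of the BORC complex on lysosomes, rose by 0.72 ± 0.20 (adjusted p = 0.0414, up to 0.144 with 1 array left out). RHOT1 (Miro1), the mitochondrial anchor of kinesin-1, rose by 0.66 ± 0.11 (adjusted p = 0.00671). With one-median scaling these 4 changed by 0.43, 0.26, 0.25 and 0.20, and none was called.

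Cytoplasmic dynein and dynactin, the opposing motor and its activator, had 5 lower (17.9%) and 3 higher (10.7%) of 28 tested members, with a median of 0.13, beside 13.4% and 10.4% of all genes. Leaving out 1 array gave between 3 and 8 lower and between 1 and 4 higher, with the upper ends without DMSO 3, and with one-median scaling 5 and 0, with a median of -0.30. SPDL1 (spindly), which recruits dynein to kinetochores in mitosis, fell by 1.31 ± 0.08 (adjusted p = 0.000233). DYNLL1, a light chain shared with many other complexes, fell by 1.15 ± 0.09 (adjusted p = 0.000455), and PAFAH1B1 (LIS1), a dynein regulator, fell by 0.98 ± 0.11 (adjusted p = 0.00180). BICD2, a cargo adaptor of dynein, rose by 0.66 ± 0.10 (adjusted p = 0.00488) and was not called with one-median scaling (0.23). In the series matrix SPDL1 changed by -0.37 and DYNLL1 by -0.50, while PAFAH1B1 changed by 0.03 and BICD2 by -0.09.

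Intraflagellar transport complex B, the cargo train of kinesin-2 in cilia, had 4 lower (23.5%, against 13.4% of all genes) and 1 higher (5.88%, against 10.4%) of 17 members and a median of -0.06. With one-median scaling 3 were lower and 0 higher (0 at an unadjusted p under 0.05), with a median of -0.23. Leaving out 1 array gave between 2 lower members (without DMSO 2, TIC10 2 or TIC10 3) and 4. IFT25 fell by 1.43 ± 0.19 (adjusted p = 0.00280), IFT56 fell by 0.75 ± 0.11 (adjusted p = 0.00387) and IFT81, which binds tubulin, fell by 0.48 ± 0.11 (adjusted p = 0.0209, up to 0.0743 with 1 array left out). IFT20, which also works at the Golgi, rose by 0.81 ± 0.12 (adjusted p = 0.00373) and was not called with one-median scaling (0.42). In the series matrix the light chain and adaptor list had 0 lower and 1 higher (1 and 3 at an unadjusted p under 0.05), the dynein and dynactin list 1 and 0 (3 and 0), and the intraflagellar list 1 and 0 (2 and 0), by limma. The 4 lists were chosen with earlier results of these data known.

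The authors' processed values of the same arrays, in the series matrix, gave the same direction with smaller and mostly uncalled changes. All 11 mitotic kinesins were negative there, with a median of -0.25 beside -0.01 for all genes, and 1 of them, KIF11, was called lower (-0.46, adjusted p = 0.0396), beside 3.02% of all genes. The further kept probe of KIF11 changed by -0.41 there and was not called (limma, adjusted over probes, adjusted p = 0.0999). At an unadjusted p under 0.05, 6 of the 11 were lower, and in 7 the TIC10 columns lay all below the DMSO columns, as did 12.1% of genes. KIF14 changed by -0.47 (adjusted p = 0.0537), KIF20A by -0.43 (adjusted p = 0.0528) and KIFC1 by -0.36 (adjusted p = 0.105). KIF2C (-0.14) and KIF4A (-0.03) were close to 0. Of the other kinesins 0 were called, beside 3.02% of genes lower and 3.68% higher (limma; 1 lower and 1 higher at an unadjusted p under 0.05), and KIF5C, which fell in the bead table, changed by 0.06.

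Smaller changes in the matrix were general. For the 407 genes lower by at least 2-fold in the bead table the median ratio of the matrix change to the bead change was 0.271, and for the 11 mitotic kinesins it was 0.176, from 0.0218 for KIF4A to 0.318 for KIF14. No source used here gives the base or the scale of the matrix, so this ratio joins 2 scales that may differ. Deviations of an array from its group mean in the bead table correlated between -0.551 and 0.0831 with those of the matrix column of the same name, a description over 14534 genes, which are not independent. Some differently named columns correlated more closely: bead TIC10 2 with matrix TIC10 1 at 0.432, bead TIC10 3 with matrix TIC10 2 at 0.474, and across groups bead TIC10 2 with matrix DMSO 3 at 0.498 and bead TIC10 3 with matrix DMSO 1 at 0.497. Whether columns carry exchanged names in either table was not tested.

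**Figure D5:**
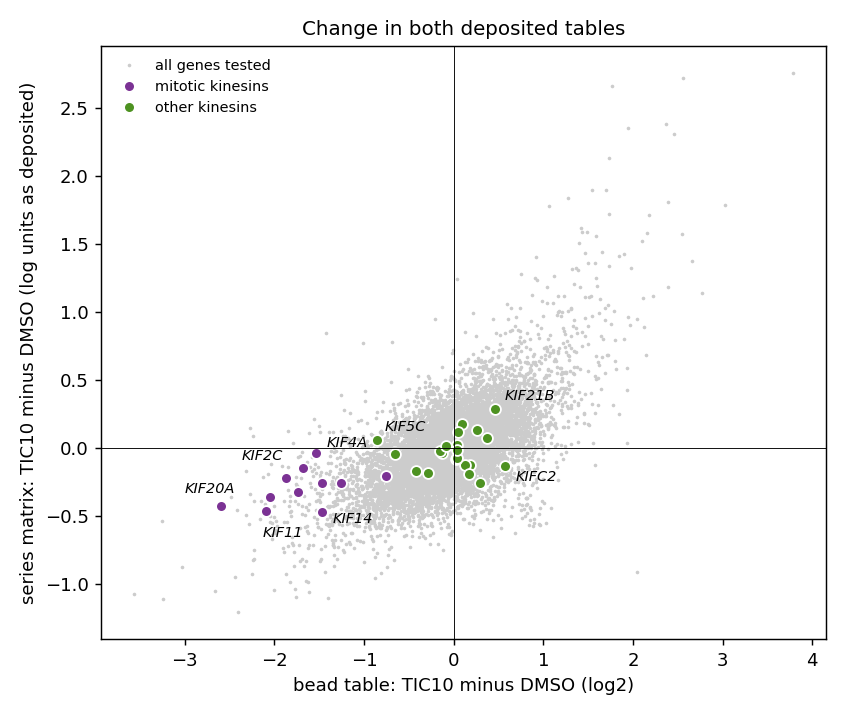
Log2 change of each tested kinesin in the bead table (horizontal axis) and in the authors' series matrix (vertical axis, entered as log2, base not given), mitotic and other kinesins marked apart. Grey points are all genes tested. All mitotic kinesins lie below 0 on both axes, between -2.60 and -0.75 in the bead table and between -0.47 and -0.03 in the matrix.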

How the data were processed

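Total RNA of 3 DMSO and 3 TIC10 samples was labelled and hybridized to Illumina arrays, per the labels' protocols. The authors deposited a bead table of intensity values, described by them as non-normalized, and a series matrix of log values that they had processed, entered here as log2 values. No source used here states the base, scale or centring of the matrix, nor the array positions and scan times. Columns named Control 1 to 3 in the bead table were taken as DMSO 1 to 3 by name and number. The tables hold 0 unused columns of per-sample values and no detection p-values.

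Background correction was normexp (offset 50) in limma 3.58.1 (R 4.3.3), followed by quantile normalization and log2. Probes brighter than percentile 40 of the array on 3 or more arrays were kept (29440 of 47319). The brightest kept probe stood for its gene (14534 genes). Groups were compared with lmFit and eBayes in a two-sided test, and p-values were adjusted by Benjamini-Hochberg across all genes. An exact permutation test of 3 against 3 cannot go below p = 0.1. The limma fit and adjustment were first tested on simulated data with known changes. Of 100 genes given a log2 change of 1 in size, 78 were found, and of 100 given a change of 2, 92. Among the genes left unchanged 6 were called.

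Gene names came from the platform annotation, updated by Entrez number to RefSeq (GRCh38.p14). The members and lists were chosen with earlier results of these data known. Named were all mitotic kinesins, the called others, the 6 brightest uncalled others, KIF2A, KIF4B, KIF5B, KIF3A, KIF3B and KIF1B, and up to 4 called members per list with the largest change. Alternatives covered background correction (none, offset 16), scaling (one median, cyclic loess), the series matrix, the filter (none, or percentile 60 on all 6 arrays), averaging a gene's probes or testing each probe, eBayes with a trend and robust option, the replicate number as a block, and each array left out in turn. The lists were run under these alternatives after the data were seen.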

Additional observations from a re-analysis of the deposited data

How the results depend on the processing

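The mitotic kinesins kept 11 lower calls under all alternatives run on the bead table. The same held when any one array was left out, and in those leave-one-out runs the medians were -1.76 to -1.56. Their median was -1.53 with the mean of a gene's probes and -2.07 with one-median scaling, where the median of all genes was -0.15. In the series matrix 1 was called and the median was -0.25.

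Calls among the other kinesins moved more. The lower count was 1 with one-median scaling (KIF5C), 1 of 11 with the stricter filter, which tests fewer genes, 0 in the series matrix and 1 to 3 with 1 array left out. The higher count was 0 with one-median scaling (limma; 0 at an unadjusted p under 0.05), 0 in the series matrix, 2 with the intensity trend (KIF21B and KIF27) and 1 to 2 with 1 array left out. The median ran from 0.02 to 0.09 without 1 array. One-median scaling ended the calls of KIF21B (adjusted p = 0.219), KIF24 (0.083), KIF3C (0.0804) and KIF26A (0.0696), and cyclic loess that of KIF3C (0.0517). The sign turned for KIF21A (-0.33 with one-median scaling, -0.12 in the matrix), KIF5B (-0.14, -0.25, and -0.18 to 0.55 with 1 array left out, negative without DMSO 3), KIF2A (-0.36 with one-median scaling, -0.019 to 0.11 with 1 array left out, negative without TIC10 1), KIF3A (-0.082 in the matrix, -0.042 to 0.088 with 1 array left out, negative without DMSO 3 or TIC10 3), KIFC2 (-0.13 in the matrix) and KIF5C (0.059 in the matrix). The cause was not tested.

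Deviations of same-numbered arrays from their group means correlated at -0.153, 0.164 and -0.0148, with no clear effect shared by replicate number. Whether the samples were paired is not stated in the labels and cannot be told from these values. With replicate number as a block, 11 mitotic kinesins were lower, and 2 other kinesins were lower (KIF24 and KIF5C), with adjusted p = 0.0513 for KIF3C and 0.0903 for KIF26A. Dim probes limit the rest, since the tables used here give no detection p-values.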
